A study of Cricetulus griseus with 9 samples.

Results

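Secreted and membrane proteins enter the endoplasmic reticulum (ER) through a shared machinery, and the genes of that machinery and of the vesicle coats between the ER and the Golgi are described here. The members are the 88 genes, of 6753 in the deposited table, whose symbol belongs to one of these families: the signal recognition particle (SRP) and its receptor, the Sec61 translocon, the TRAP complex, signal peptidase, the COPII and COPI coats, the p24 (Tmed) proteins, cargo and retrieval receptors, the Yip family, the TRAPP and COG tethers, golgins and Sec22. The rule uses symbols and no measured value. Of 110 protein-coding symbols in the RefSeq annotation of the Chinese hamster that match the same families, 85 are in the table under the same symbol. Among the others are Sec61b, Sec61g, Srp54, Sec24a, Sec24c, Spcs2 and Spcs3, which were not analysed here. Srpra also counts among them, since symbols were compared, but the table lists that gene as Srpr, a member. The lowest mean level of any listed gene was 20.4 CPM, and the means of the members ran from 21.0 to 399 CPM.

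RNA sequencing was done on MI5-4 cells, a Chinese hamster ovary subline described by the labels as hexokinase null. There were 3 groups of 3 libraries. WTHK2 was labelled as MI5-4 cells expressing wild-type hexokinase 2, LAC was empty-vector cells given 10 mM sodium lactate for 24 h, and EV was empty-vector cells without lactate. All groups share the hexokinase-null background, and the medium of all of them held glucose and serum. The sources used here state neither how HK2 was delivered, nor whether a group is 1 clone, nor whether replicates came from separate cultures. The p-values therefore reflect library-to-library spread alone, which may be technical.

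A ribosome that makes a signal sequence is bound by SRP, brought to the SRP receptor, and docked on the Sec61 channel, where TRAP assists entry and signal peptidase removes the signal. Folded cargo leaves the ER in vesicles that the COPII coat forms at exit sites. COPI vesicles carry escaped ER proteins and cargo receptors back, and tethers such as TRAPP, COG and the golgins hold incoming vesicles at their target membrane.

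Effective library sizes were 18050959 to 26238659 reads, and no gene had fewer than 304 reads in any of them. The hamster gene Hk2 had 66.6, 65.3 and 63.9 CPM in WTHK2 and 68.4, 68.7 and 64.9 CPM in EV, with a log2 difference of -0.044 (SE 0.054, adjusted p = 0.522). The sources used here do not state the species of the HK2 that was expressed, so whether this row counts its reads is not known and the row does not check the label. WTHK2 below means the libraries labelled so, and each direction given for them rests on that label. Of 7 mesenchymal markers, 3 (Vim, Col3a1 and S100a6) were listed, with summed levels of 4330 to 4438 CPM in WTHK2, 3578 to 3706 CPM in LAC and 3391 to 3485 CPM in EV. Of 5 epithelial and 5 leukocyte markers, 0 were listed. In bulk libraries, fewer cells that express a gene and less of its RNA per cell cannot be told apart.

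In WTHK2 against EV, TRAP subunits Ssr2 and Ssr4, both signal peptidase genes, 4 of 8 p24 genes and the vesicle tether Uso1 rose. Copg2 of the COPI coat, the ER exit site scaffold Sec16a, the golgins Golga3 and Golga4, Srp72 of SRP and the channel subunit Sec61a1 fell. In all, 22 members were higher, against 21.0% of all genes, and 15 were lower, against 25.4% of all genes. As shares of the 88 members these are 25.0% and 17.0%, so members were called about as often as other genes, with somewhat fewer of them lower. The median log2 fold change was 0.026 over the members and -0.0082 over all genes, and the median fold of the called members, in either direction, was 1.16. Genes were called where the p adjusted over the 6753 genes by the Benjamini-Hochberg method was under 0.05. Of the called members 59.5% were higher, and 73.7% after rescaling the libraries to 1 shared median. Over all genes 1417 were higher and 1714 lower before rescaling, and rescaling moved the median of all genes from -0.0082 to 0.027. Rescaling multiplies all genes of a library by 1 factor, so it moves members and other genes alike by construction. The share of all genes called after rescaling was not worked out. The count of lower members was 9 without EV replicate 2.

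In LAC against EV, Ssr2, Ssr4, Sec11a, Spcs1 and the COPI subunit COPE were higher. Of the genes that act at ER entry, 0 of 7 SRP genes were higher and 2 lower, which turned to 2 higher and 0 lower after rescaling the libraries to 1 shared median or with quantile normalization, and Sec61a1 was lower. The cargo receptor Surf4 had the largest fall of any member, and 5 of 10 COPII genes were lower. There were 17 members higher, against 22.4% of all genes, and 22 lower, against 27.1% of all genes, which are 19.3% and 25.0% of the members. The median was -0.0043 over the members and -0.0035 over all genes, and the median fold of the called members was 1.14. Of the called members 43.6% were higher, against 61.5% after rescaling the libraries to 1 shared median and 56.8% with quantile normalization. Over all genes 1512 were higher and 1829 lower in the main fit. The median of all genes also moved up, to 0.038 after rescaling and 0.0185 with quantile normalization. Both comparisons use the same 3 EV libraries, so their values are given side by side and not as 2 independent results.

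**Figure D1:**
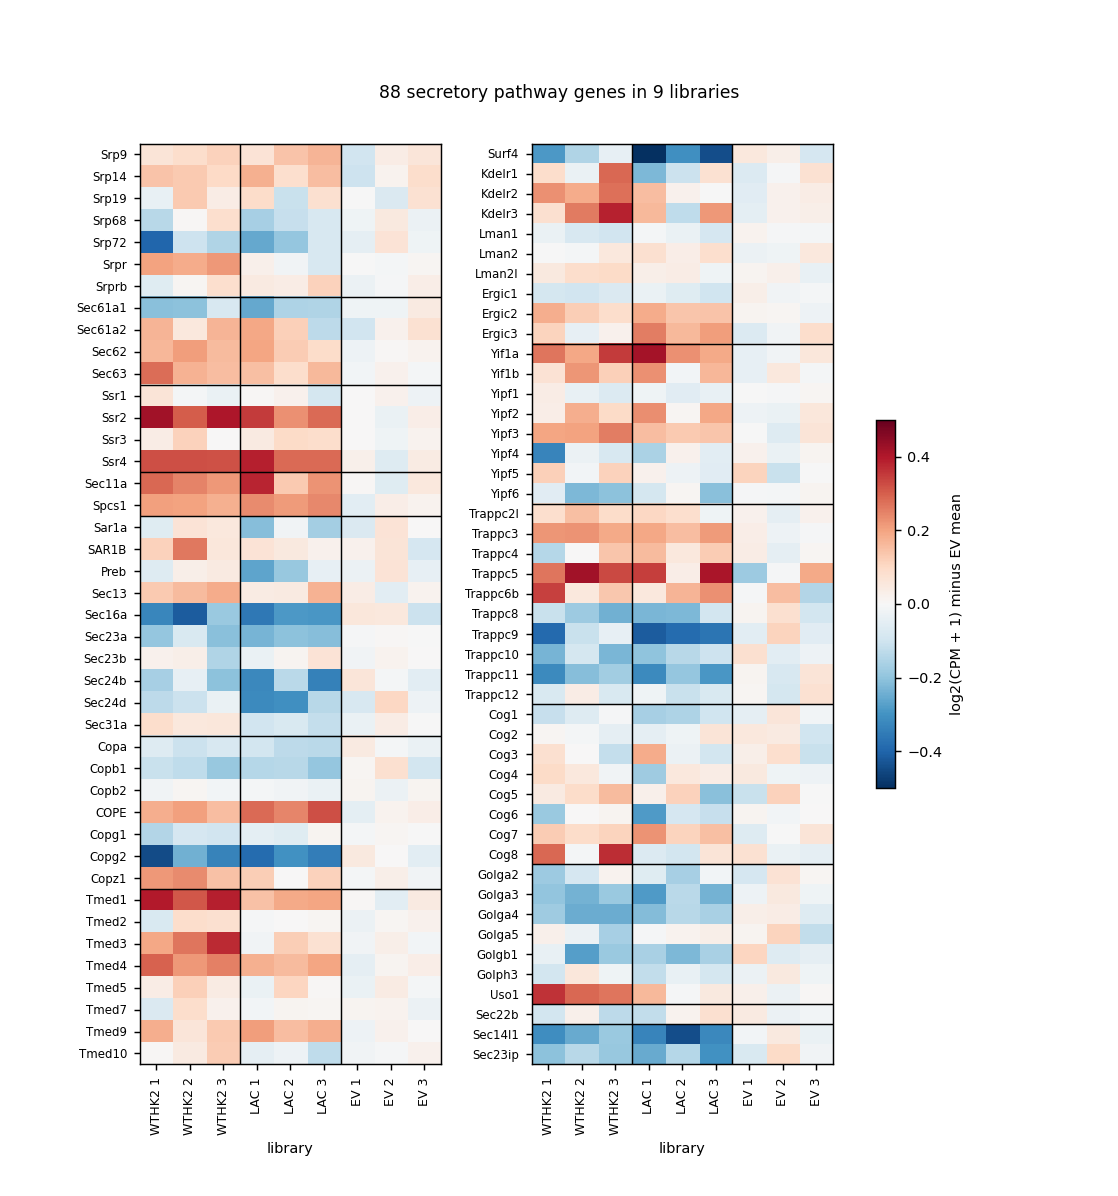
Log2(CPM + 1) of each of the 88 members in each library, minus the mean of the 3 EV libraries, with red for higher and blue for lower and black lines between role groups. Ssr2, Ssr4, Sec11a, Spcs1 and Yif1a are red in all 6 WTHK2 and LAC libraries, and Sec16a, Copg2, Trappc11 and Sec14l1 are blue in all 6.

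Counts of each role group, here and below, stand beside the following shares of all genes. In WTHK2 against EV 21.0% were higher and 25.4% lower, and in LAC against EV 22.4% and 27.1%. The groups are small, and a count near these shares is not read as a result about the group. Of the 7 genes of the signal recognition particle and its receptor, 1 was higher and 1 lower in WTHK2, and 0 were higher and 2 lower in LAC. Srpr, the SRP receptor subunit that docks the particle, had 164, 163 and 166 CPM in WTHK2, 146, 141 and 135 CPM in LAC, and 143, 142 and 144 CPM in EV. All WTHK2 libraries lay above all others, while LAC and EV overlapped. Many genes shown by library here and below were picked among called members without overlap, so their lack of overlap is no separate support. The log2 difference was 0.20 in WTHK2 against EV (SE 0.041, adjusted p = 5.39e-04) and -0.024 in LAC against EV (adjusted p = 0.647). Srp72, which binds the SRP RNA together with Srp68, stood at 109, 134 and 129 CPM in WTHK2, at 120, 126 and 136 CPM in LAC, and at 139, 151 and 142 CPM in EV. Every EV library was above every other one, and the log2 differences were -0.22 (adjusted p = 0.00812) and -0.18 (adjusted p = 0.0239). In WTHK2 Srp72 no longer passed once EV replicate 2 (adjusted p = 0.0530) or WTHK2 replicate 1 (0.0601) was removed, nor in LAC without EV replicate 2 (0.117) or LAC replicate 1 (0.101) and under both other scalings. The LAC call of Srp72 was also lost without the variance trend (0.0675). Srp68 was lower in LAC alone among the 2 comparisons with EV, at -0.12 (adjusted p = 0.0419), a call lost without any one of the EV libraries (adjusted p between 0.0568 and 0.172), LAC replicate 1 (0.140) or LAC replicate 2 (0.0569) and under both other scalings. Without the variance trend the Srp68 call was lost as well (0.107). After rescaling the libraries to 1 shared median, or with quantile normalization, the SRP genes called in LAC were 2 higher and 0 lower in place of 0 and 2. Srp9 and Srp14, the pair that holds the other end of the particle, did not pass in either comparison in the main fit. Srp9 was at 0.089 in WTHK2 and 0.13 in LAC (adjusted p = 0.0707 in LAC), and Srp14 at 0.13 and 0.14 (adjusted p = 0.0652 in LAC).

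At the channel, Ssr2, Ssr4, Sec62, Sec63 and both signal peptidase genes rose in both comparisons with EV. The pore gene Sec61a1 fell in both, while its paralog Sec61a2 did not pass. Ssr2, the beta subunit of TRAP, had 309, 284 and 305 CPM in WTHK2, 294, 270 and 280 CPM in LAC, and 230, 225 and 236 CPM in EV. Ssr4, the delta subunit, had 154, 154 and 153 CPM in WTHK2, 161, 150 and 149 CPM in LAC, and 125, 117 and 126 CPM in EV. For both genes every WTHK2 and LAC library exceeded every EV library. Ssr2 rose by 0.38 (SE 0.041, adjusted p = 6.98e-07) in WTHK2 and by 0.29 (SE 0.041, adjusted p = 1.57e-05) in LAC, and Ssr4 by 0.32 in each (adjusted p = 9.53e-06 and 1.14e-05). The other TRAP subunits did not pass: Ssr1 was at 0.0079 and -0.020, and Ssr3 at 0.051 and 0.076 in WTHK2 and LAC. The 95% intervals of Ssr1 (-0.071 to 0.087 in WTHK2) and Ssr2 (0.29 to 0.46) did not overlap.

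Signal peptidase was represented by Sec11a, a catalytic subunit, and Spcs1, a small accessory subunit. Sec11a had 101, 98.6 and 96.4 CPM in WTHK2, 108, 90.9 and 97.1 CPM in LAC, and 83.3, 79.5 and 86.2 CPM in EV. Spcs1 had 95.8, 95.6 and 94.1 CPM in WTHK2, 97.9, 96.4 and 98.3 CPM in LAC, and 80.0, 85.1 and 84.1 CPM in EV. Neither gene overlapped between EV and the other groups. Sec11a rose by 0.25 in both WTHK2 (adjusted p = 0.00143) and LAC (adjusted p = 0.00149), and Spcs1 by 0.19 (adjusted p = 0.00188) and 0.23 (adjusted p = 4.20e-04).

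Sec61a1, which forms the pore, had 117, 118 and 128 CPM in WTHK2, 114, 122 and 122 CPM in LAC, and 134, 134 and 140 CPM in EV, with log2 differences of -0.16 (adjusted p = 0.00849) and -0.19 (adjusted p = 0.00330). Its paralog Sec61a2 lay near the lowest level listed, at 22.7, 20.8 and 22.7 CPM in WTHK2, 23.0, 21.9 and 18.2 CPM in LAC, and 18.7, 20.4 and 21.2 CPM in EV, and did not pass (log2 0.13 and 0.060). EV was the highest group for Sec61a1 with no overlap, while the Sec61a2 groups overlapped. Sec62 and Sec63, membrane partners that open the channel for part of its clients, were both higher. Sec63 had 143, 133 and 131 CPM in WTHK2, 131, 125 and 132 CPM in LAC, and 117, 120 and 117 CPM in EV. Sec62 had 150, 155 and 149 CPM in WTHK2, 154, 146 and 143 CPM in LAC, and 132, 134 and 136 CPM in EV. Neither overlapped with EV. In WTHK2 the log2 rises were 0.20 for Sec63 (adjusted p = 0.00113) and 0.18 for Sec62 (adjusted p = 0.00184). In LAC they were 0.13 (adjusted p = 0.0187) and 0.14 (adjusted p = 0.00951), and these calls were lost without LAC replicate 1 (adjusted p = 0.0560 and 0.0614), that of Sec63 also without LAC replicate 3 (0.0697), EV replicate 1 (0.0608) or EV replicate 3 (0.0545).

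Of the 10 COPII genes, 1 was higher and 2 lower in WTHK2, and 0 were higher and 5 lower in LAC. After rescaling the libraries to 1 shared median the counts were 2 higher and 1 lower in WTHK2 and 1 higher and 4 lower in LAC, and with quantile normalization 1 and 1 in WTHK2 and 0 and 4 in LAC. The median log2 fold change of the group was -0.014 in WTHK2 and -0.15 in LAC. That median of WTHK2 was 0.021 and 0.0043 under the other scalings, so it has no set direction, while that of LAC stayed negative at -0.11 under both. Sec16a, the scaffold of ER exit sites, had 67.7, 63.6 and 74.8 CPM in WTHK2, 66.2, 69.6 and 69.4 CPM in LAC, and 88.6, 88.5 and 78.9 CPM in EV. EV was highest with no overlap, and the log2 difference was -0.31 in both WTHK2 (SE 0.062, adjusted p = 4.49e-04) and LAC (SE 0.062, adjusted p = 3.74e-04). Sec13, a subunit of the outer cage, was the member that rose in WTHK2, by 0.16 (adjusted p = 0.00604), and in LAC it was at 0.086 (adjusted p = 0.107).

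The inner coat, which binds cargo, is built from the Sec23 and Sec24 families. Sec24b had 72.3, 78.8 and 70.2 CPM in WTHK2, 64.8, 73.8 and 64.1 CPM in LAC, and 84.7, 80.7 and 78.2 CPM in EV. Sec24d had 47.8, 48.4 and 51.1 CPM in WTHK2, 41.8, 42.1 and 47.4 CPM in LAC, and 49.5, 56.3 and 51.4 CPM in EV. In both genes LAC lay below EV without overlap, and WTHK2 overlapped EV. The falls in LAC were -0.26 (adjusted p = 0.00146) for Sec24b and -0.25 (adjusted p = 0.00391) for Sec24d, against -0.14 (adjusted p = 0.0713) and -0.090 (adjusted p = 0.281) in WTHK2. WTHK2 and LAC themselves differed by 0.13 (adjusted p = 0.173) and 0.16 (adjusted p = 0.105), so neither gene was shown to differ between them.

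Sec23a, the GTPase activator of the coat, had 42.9, 46.6 and 42.5 CPM in WTHK2, 41.7, 42.6 and 42.3 CPM in LAC, and 49.1, 49.4 and 49.2 CPM in EV. Its paralog Sec23b had 137, 138 and 121 CPM in WTHK2, 132, 136 and 141 CPM in LAC, and 133, 136 and 135 CPM in EV. Sec23a was lower than in every EV library in all 6 other libraries, while Sec23b overlapped throughout. Sec23a was lower by -0.22 on the log2 scale in LAC (adjusted p = 0.00547) and by -0.16 in WTHK2 (adjusted p = 0.0356). The WTHK2 call was lost under both other scalings and without EV replicate 1 (0.0764), EV replicate 2 (0.0857), EV replicate 3 (0.0758), WTHK2 replicate 1 (0.0990) or WTHK2 replicate 3 (0.121). Sec23b stood at -0.032 (95% interval -0.13 to 0.070) in WTHK2 and at 0.017 (-0.085 to 0.12) in LAC. Sar1a, the GTPase that starts the coat, had 71.6, 78.4 and 77.5 CPM in WTHK2, 64.4, 73.9 and 66.3 CPM in LAC, and 71.0, 78.4 and 74.8 CPM in EV. SAR1B had 31.7, 35.2 and 30.3 CPM in WTHK2, 30.6, 30.2 and 29.6 CPM in LAC, and 29.6, 30.5 and 27.4 CPM in EV. These 2 genes overlapped in every comparison and did not pass, nor did Preb, their exchange factor, at 0.0028 in WTHK2 and -0.17 in LAC (adjusted p = 0.0650). How reads shared by paralogs were counted is not given in the sources used here.

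COPI coatomer subunits went both ways. COPE, the epsilon subunit, had 93.3, 94.97 and 91.6 CPM in WTHK2, 100.2, 97.4 and 102.9 CPM in LAC, and 79.5, 83.1 and 84.0 CPM in EV. Copg2, 1 of the 2 gamma subunits, had 66.2, 76.5 and 71.7 CPM in WTHK2, 69.1, 73.3 and 71.0 CPM in LAC, and 93.7, 90.8 and 87.3 CPM in EV. COPE was lowest and Copg2 highest in EV, with no overlap in either gene. COPE rose by 0.18 (adjusted p = 0.00381) in WTHK2 and by 0.28 (adjusted p = 7.47e-05) in LAC. Copg2 fell, with a log2 difference of -0.34 in WTHK2 (SE 0.056, adjusted p = 7.40e-05) and -0.34 in LAC (SE 0.056, adjusted p = 6.00e-05). Its paralog Copg1 had 263, 275 and 273 CPM in WTHK2, 282, 279 and 294 CPM in LAC, and 290, 294 and 291 CPM in EV. WTHK2 was below EV in every library, and LAC overlapped EV. The difference of Copg1 was -0.11 (adjusted p = 0.0180) in WTHK2, lost without EV replicate 2 (0.0661), WTHK2 replicate 1 (0.0647) or the variance trend (0.0571) and after rescaling the libraries to 1 shared median (0.120), and -0.033 (adjusted p = 0.465) in LAC.

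Copz1, the zeta subunit, had 146, 148 and 139 CPM in WTHK2, 137, 126 and 136 CPM in LAC, and 125, 128 and 124 CPM in EV, and rose by 0.20 (adjusted p = 0.00129) in WTHK2, where it did not overlap EV. In LAC it was at 0.081 (adjusted p = 0.142). Copb1, the beta subunit, was lower in both comparisons, at -0.14 (adjusted p = 0.0185) and -0.16 (adjusted p = 0.00896). Without EV replicate 2 it passed in neither (adjusted p = 0.130 and 0.0771), and in WTHK2 it was also lost without EV replicate 1 (0.0613) or WTHK2 replicate 3 (0.0787) and under both other scalings. Copa, the alpha subunit, passed in LAC alone, at -0.12 (adjusted p = 0.0101), and was lost without EV replicate 1 (0.0679) and after rescaling to the same median (0.0862). In WTHK2 it was at -0.082 (adjusted p = 0.0676). Copb2 was at -0.0074 and -0.021.

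**Figure D2:**
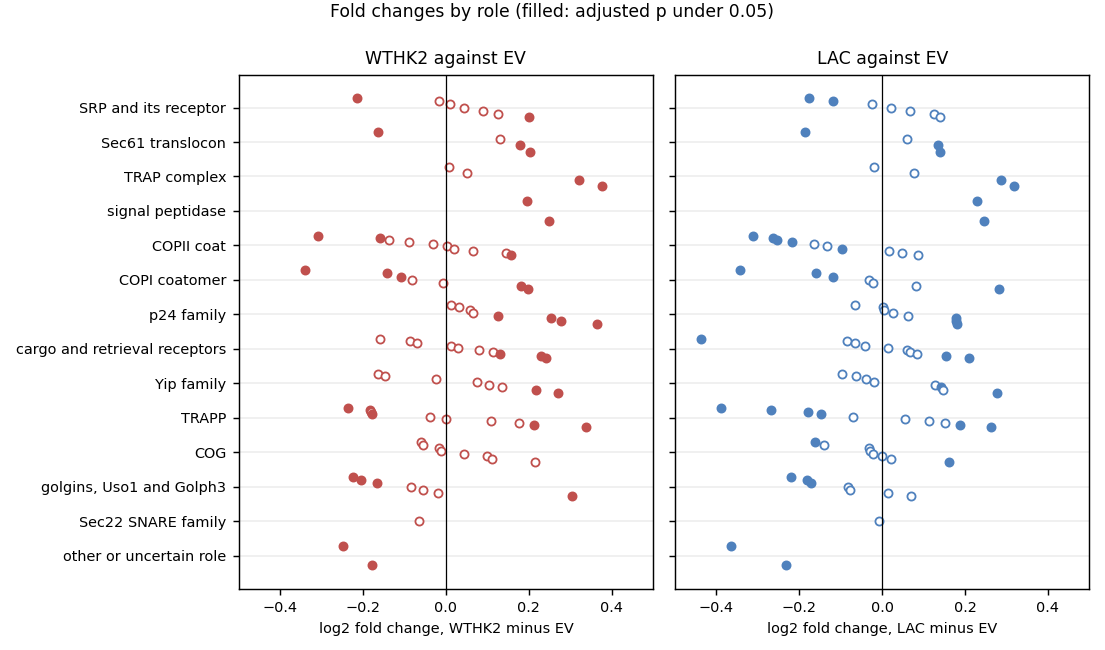
Log2 fold change of each member by role group, for WTHK2 against EV at the left and LAC against EV at the right, filled where the adjusted p was under 0.05. All filled points of the TRAP, signal peptidase, p24 and Yip rows lie to the right of 0 in both panels, and those of the COPII row lie to the left in LAC.

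Among p24 proteins, which select cargo for both coats, called genes were higher only: 4 of 8 in WTHK2 and 3 of 8 in LAC, with 0 lower in either. Tmed1 had 114, 107 and 113 CPM in WTHK2, 95.2, 98.2 and 98.7 CPM in LAC, and 86.4, 82.8 and 88.7 CPM in EV. The 3 groups did not overlap, with WTHK2 highest and EV lowest. Tmed1 rose by 0.37 (SE 0.047, adjusted p = 4.80e-06) in WTHK2 and by 0.18 (SE 0.047, adjusted p = 0.00408) in LAC. Tmed3 had 71.2, 74.9 and 80.6 CPM in WTHK2, 61.4, 67.8 and 65.5 CPM in LAC, and 61.4, 63.4 and 61.6 CPM in EV. WTHK2 was highest without overlap, by 0.28 against EV (adjusted p = 6.14e-04), and LAC overlapped EV (0.061, adjusted p = 0.389). Tmed4 had 131, 124 and 128 CPM in WTHK2, 121, 120 and 123 CPM in LAC, and 104, 108 and 109 CPM in EV. Tmed9 had 360, 331 and 347 CPM in WTHK2, 367, 352 and 360 CPM in LAC, and 312, 321 and 318 CPM in EV. Both were lowest in EV without overlap, Tmed4 with rises of 0.25 (adjusted p = 1.07e-04) and 0.18 (adjusted p = 0.00219), Tmed9 with 0.12 (adjusted p = 0.00922) and 0.18 (adjusted p = 4.80e-04). The 4 others, Tmed2, Tmed5, Tmed7 and Tmed10, lay between 0.012 and 0.066 in WTHK2 and between -0.065 and 0.027 in LAC and did not pass.

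Cargo and retrieval receptors had 3 of 10 genes higher and 0 lower in WTHK2, and 2 higher and 1 lower in LAC. Surf4, a receptor for many soluble secreted proteins, had 55.6, 61.2 and 66.1 CPM in WTHK2, 45.7, 54.7 and 49.8 CPM in LAC, and 70.6, 69.4 and 64.0 CPM in EV. LAC lay below all other libraries, and WTHK2 overlapped EV. Surf4 fell, with a log2 difference of -0.44 (SE 0.071, adjusted p = 5.61e-05) in LAC, where no alternative ended the call, and was at -0.16 (adjusted p = 0.0732) in WTHK2. Ergic3 and Ergic2 cycle between the ER and the Golgi. Ergic3 had 130, 117 and 122 CPM in WTHK2, 144, 135 and 140 CPM in LAC, and 115, 119 and 128 CPM in EV, and rose by 0.21 (adjusted p = 0.00192) in LAC but was at 0.030 (adjusted p = 0.647) in WTHK2. LAC was the highest group without overlap. Ergic2 rose in both, by 0.13 (adjusted p = 0.00730) and 0.15 (adjusted p = 0.00190).

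KDEL receptors return ER chaperones that reach the Golgi. Kdelr2 had 180, 174 and 186 CPM in WTHK2, 171, 156 and 153 CPM in LAC, and 147, 155 and 157 CPM in EV. Kdelr3 had 39.3, 44.6 and 48.8 CPM in WTHK2, 41.7, 33.9 and 43.3 CPM in LAC, and 35.9, 37.6 and 37.9 CPM in EV. Both were above EV in every WTHK2 library and overlapped EV in LAC. Kdelr2 rose by 0.23 (SE 0.046, adjusted p = 4.82e-04) in WTHK2. Kdelr3 rose by 0.24 (SE 0.086, adjusted p = 0.0261), a call lost without EV replicate 1 (0.0950), EV replicate 2 (0.0548), WTHK2 replicate 2 (0.0650) or WTHK2 replicate 3 (0.149). Kdelr1 had 24.1, 22.1 and 27.9 CPM in WTHK2, 19.3, 21.0 and 23.9 CPM in LAC, and 21.6, 22.6 and 23.9 CPM in EV, with overlap throughout and a log2 value of 0.11 (adjusted p = 0.338). In LAC the 3 genes were at 0.059, 0.084 and -0.086 for Kdelr2, Kdelr3 and Kdelr1 (adjusted p between 0.302 and 0.466). The lectins Lman1, Lman2 and Lman2l, which carry glycoproteins, and Ergic1 did not pass in either comparison and lay between -0.086 and 0.079.

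The Yip family, small multi-spanning membrane proteins of the early secretory pathway, had 2 of 8 genes higher and 0 lower in each comparison. After rescaling the libraries to 1 shared median 3 were higher in WTHK2 and 4 in LAC, with quantile normalization 2 and 4, and with voom on recovered reads 2 were higher and 1 lower in WTHK2. Yif1a had 65.4, 62.0 and 69.2 CPM in WTHK2, 72.6, 63.5 and 61.8 CPM in LAC, and 52.5, 53.5 and 56.4 CPM in EV. Every EV library was lower, and the rises were 0.27 (adjusted p = 0.00196) in WTHK2 and 0.28 (adjusted p = 0.00146) in LAC. Yipf3 had 52.9, 53.0 and 55.2 CPM in WTHK2, 51.3, 50.5 and 50.8 CPM in LAC, and 46.0, 44.0 and 48.1 CPM in EV. It did not overlap EV either, with 0.22 (adjusted p = 0.00451) in WTHK2 and 0.14 (adjusted p = 0.0487) in LAC. The LAC call was lost without EV replicate 1 (0.0977), EV replicate 2 (0.185), WTHK2 replicate 2 (0.0603), WTHK2 replicate 3 (0.0566) or any one LAC library (0.0638 to 0.107). It was also lost with the 6 libraries of the comparison alone (0.0626).

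TRAPP, the exchange factor for the Rab GTPases of early transport, had 2 of 10 genes higher and 3 lower in WTHK2, and 2 higher and 4 lower in LAC. Trappc2l, Trappc4 and Trappc6b did not pass in either comparison. In that order they were at 0.11, 0.00022 and 0.18 in WTHK2 (adjusted p = 0.105, 0.9985 and 0.128). In LAC they were at 0.055, 0.11 and 0.15 (adjusted p = 0.409, 0.1705 and 0.183). Trappc3, a subunit of the core shared by its forms, had 120, 121 and 118 CPM in WTHK2, 118, 115 and 120 CPM in LAC, and 106, 102 and 103 CPM in EV. It did not overlap EV and rose by 0.21 (adjusted p = 5.26e-04) in WTHK2 and by 0.19 (adjusted p = 0.00134) in LAC. Trappc5, also of the core, had 35.5, 39.6 and 37.2 CPM in WTHK2, 37.5, 30.1 and 39.3 CPM in LAC, and 25.7, 29.2 and 33.6 CPM in EV. It was above every EV library in WTHK2 but not in LAC. Its rises were 0.34 (SE 0.096, adjusted p = 0.00694) and 0.26 (SE 0.096, adjusted p = 0.0289). Without EV replicate 1 they did not pass (adjusted p = 0.0647 and 0.189), and that of LAC was also lost without EV replicate 2 (0.0726), LAC replicate 1 (0.0942), LAC replicate 3 (0.163) or the variance trend (0.0516).

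Of the larger TRAPP subunits, Trappc11, Trappc10 and Trappc8 were lower in both comparisons and Trappc9 in LAC. Trappc12 did not pass, at -0.038 (adjusted p = 0.601) in WTHK2 and -0.070 (adjusted p = 0.306) in LAC. Trappc11 had 42.2, 45.5 and 46.7 CPM in WTHK2, 42.2, 46.2 and 43.0 CPM in LAC, and 53.5, 50.05 and 55.4 CPM in EV. Trappc9 had 25.8, 31.4 and 33.1 CPM in WTHK2, 25.3, 25.8 and 26.2 CPM in LAC, and 32.8, 36.9 and 32.6 CPM in EV. Trappc11 was below EV in all 6 libraries, and Trappc9 only in LAC. Trappc11 fell, with a log2 difference of -0.24 (adjusted p = 0.00555) in WTHK2 and -0.27 (adjusted p = 0.00195) in LAC. Trappc9 fell, with a log2 difference of -0.39 (SE 0.086, adjusted p = 9.47e-04) in LAC and was at -0.18 (adjusted p = 0.0906) in WTHK2. Trappc10 was at -0.18 (adjusted p = 0.00865) and -0.15 (adjusted p = 0.0282), and Trappc8 at -0.18 in both (adjusted p = 0.0340 and 0.0296). Without EV replicate 1 neither Trappc10 (adjusted p = 0.0674 and 0.159) nor Trappc8 (0.0912 and 0.0814) passed in either comparison. Without EV replicate 2 Trappc8 did not pass either (0.157 and 0.142). Without LAC replicate 1 both were lost in LAC (0.106 and 0.0949), as was Trappc8 without LAC replicate 2 (0.0744). In WTHK2 Trappc8 was further lost without WTHK2 replicate 2 (0.0743) or WTHK2 replicate 3 (0.126). After rescaling the libraries to 1 shared median TRAPP counted 3 higher and 2 lower in WTHK2 in place of 2 and 3, and 2 higher and 2 lower in LAC in place of 2 and 4.

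COG, which tethers vesicles within the Golgi, had 0 of 8 genes called by limma in WTHK2, where their log2 values ran from -0.061 to 0.22. At an unadjusted p under 0.05 there was 1 (Cog8, higher), voom on the recovered reads called 0, and rescaling to the same median called 2 higher. In LAC, Cog7 had 62.9, 58.1 and 59.8 CPM, against 51.4, 53.7 and 56.3 CPM in EV, and was higher by 0.16 (adjusted p = 0.0236). Cog6 had 70.0, 80.5 and 78.7 CPM in LAC, against 86.2, 84.7 and 85.5 CPM in EV, and was lower at -0.16 (adjusted p = 0.0321). Neither overlapped, but both calls were lost without EV replicate 1 (0.109 and 0.0896), EV replicate 2 (0.0588 and 0.0654) or LAC replicate 1 (0.105 and 0.196). That of Cog6 was also lost without EV replicate 3 (0.0720) or the variance trend (0.0567) and under both other scalings.

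Golgins, long coiled-coil tethers of the Golgi, had 3 members lower in each comparison. Golga4 had 144, 137 and 137 CPM in WTHK2, 140, 148 and 146 CPM in LAC, and 166, 167 and 156 CPM in EV. Golga3 had 89.9, 87.5 and 90.7 CPM in WTHK2, 84.5, 93.8 and 87.4 CPM in LAC, and 101.4, 106.7 and 101.5 CPM in EV. EV was above both other groups without overlap. Golga4 fell, with a log2 difference of -0.22 (adjusted p = 3.36e-04) in WTHK2 and -0.17 (adjusted p = 0.00288) in LAC, and Golga3 with -0.21 (adjusted p = 0.00219) and -0.22 (adjusted p = 0.00120). Golgb1, or giantin, had 122, 103 and 109 CPM in WTHK2, 111, 107 and 111 CPM in LAC, and 134, 119 and 121 CPM in EV, overlapping EV in WTHK2. Its falls of -0.17 (adjusted p = 0.0223) and -0.18 (adjusted p = 0.0125) were lost without EV replicate 1 (0.162 and 0.104), and that of WTHK2 also without WTHK2 replicate 2 (0.138) or WTHK2 replicate 3 (0.0632) and under both other scalings. Without the variance trend the WTHK2 call of Golgb1 was lost too (0.056). Golga2 and Golga5 did not pass.

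Uso1, or p115, which tethers COPII and COPI vesicles together with the golgins, went the other way. It had 102, 96.4 and 94.9 CPM in WTHK2, 88.4, 78.5 and 81.7 CPM in LAC, and 80.2, 77.2 and 79.0 CPM in EV. WTHK2 was above all other libraries, with a rise of 0.30 against EV (SE 0.052, adjusted p = 1.06e-04), and LAC was at 0.070 (adjusted p = 0.278). By RefSeq gene order, the 14 measured genes nearest to Uso1 had a median of -0.14 in WTHK2. Such medians were worked out for other members too and are not given here. No rule picked Uso1 for this, and the part of gene neighbourhood was not tested. Golph3, a Golgi phosphoinositide-binding protein, and the SNARE Sec22b did not pass in either comparison.

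Sec14l1 and Sec23ip share the symbols of the coats without being part of them. Sec23ip binds Sec23 at exit sites, and the role of the lipid-binding protein Sec14l1 in this transport step is uncertain. Sec14l1 had 111, 115 and 121 CPM in WTHK2, 109, 101 and 110 CPM in LAC, and 136, 142 and 134 CPM in EV. Sec23ip had 118, 124 and 119 CPM in WTHK2, 114, 123 and 110 CPM in LAC, and 129, 146 and 135 CPM in EV. Both were highest in EV without overlap. Sec14l1 fell, with a log2 difference of -0.25 (adjusted p = 3.32e-04) in WTHK2 and -0.36 (adjusted p = 6.88e-06) in LAC, and Sec23ip with -0.18 (adjusted p = 0.00777) and -0.23 (adjusted p = 9.68e-04). Without EV replicate 2 Sec23ip did not pass in WTHK2 (0.0707).

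**Figure D3:**
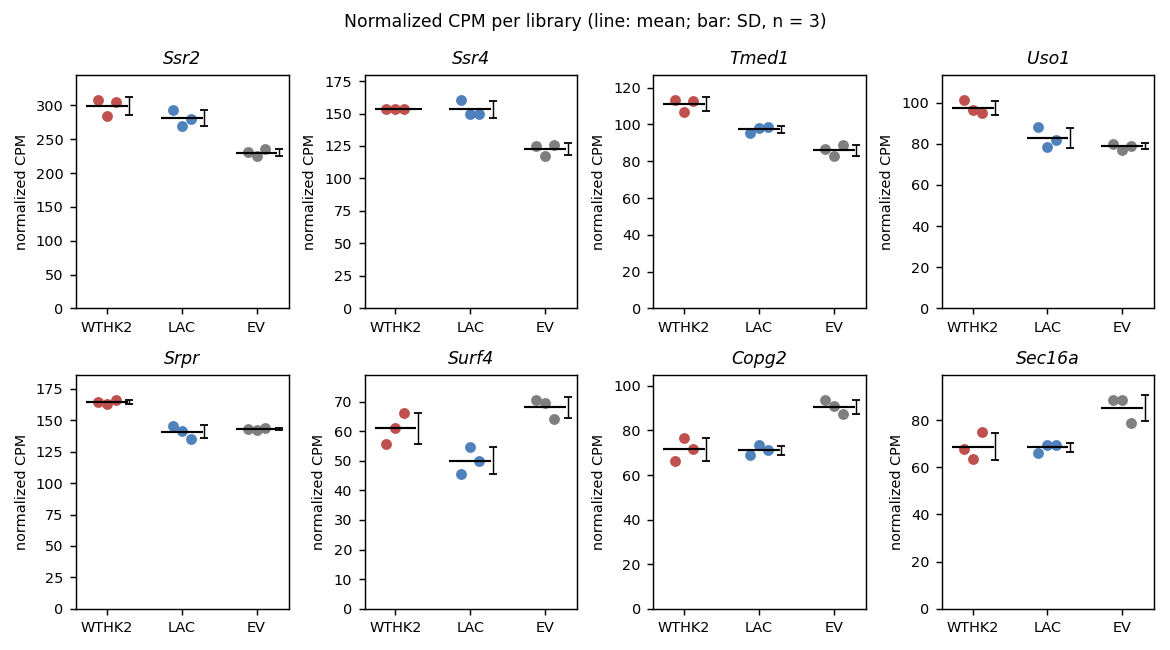
Normalized CPM of 8 members in each library, with the mean as a line and the SD as a bar (n = 3), for WTHK2, LAC and EV. Ssr2, Ssr4 and Tmed1 are higher than EV in both other groups, Uso1 and Srpr lie above all EV libraries in WTHK2, Surf4 is lowest in LAC, and Copg2 and Sec16a are highest in EV.

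The third comparison asked whether cells labelled as expressing HK2 and lactate-treated cells differ from each other. Of 88 members, 8 were higher in WTHK2 than in LAC, against 8.37% of all genes, and 1 was lower, against 7.76% of all genes. These are 9.09% and 1.14% of the members. Those higher were Surf4, Uso1, Srpr, Tmed3, Tmed1, Kdelr2, Sec31a and Tmed10, and Ergic3 was lower. The count of 9 was 14 without WTHK2 replicate 1 and 4 without WTHK2 replicate 3.

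Surf4 averaged 60.9 ± 5.25 CPM in WTHK2 and 50.04 ± 4.52 CPM in LAC (SD, n = 3 each), a difference of 0.28 (SE 0.071, adjusted p = 0.00975), with the lowest WTHK2 library (55.6 CPM) close to the highest LAC library (54.7 CPM). The call was lost without WTHK2 replicate 3 (adjusted p = 0.0753) or LAC replicate 1 (0.0522). Uso1 averaged 97.6 ± 3.47 CPM in WTHK2 and 82.8 ± 5.06 CPM in LAC, and differed by 0.24 (SE 0.052, adjusted p = 0.00362). Srpr averaged 164 ± 1.69 CPM in WTHK2 and 141 ± 5.14 CPM in LAC, and differed by 0.22 (SE 0.041, adjusted p = 6.47e-04). The calls of Uso1, Srpr and Sec31a were kept under every alternative fit and library left out. Sec31a, of the outer COPII cage, had 195, 190 and 191 CPM in WTHK2, 172, 174 and 169 CPM in LAC, and 179, 188 and 183 CPM in EV. It lay above EV in WTHK2 and below EV in LAC, so that the difference of 0.16 (SE 0.038, adjusted p = 0.00584) passed, whereas WTHK2 against EV was at 0.066 (adjusted p = 0.162). Its fall of -0.096 (adjusted p = 0.0423) in LAC against EV was lost without EV replicate 2 (0.167), EV replicate 3 (0.0861), WTHK2 replicate 3 (0.0508), LAC replicate 1 (0.0817) or LAC replicate 3 (0.116), and under both other scalings. That fall also did not pass without the variance trend (0.0765).

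The p24 genes Tmed3, Tmed1 and Tmed10 were higher in WTHK2 than in LAC by 0.22 (adjusted p = 0.0128), 0.19 (adjusted p = 0.00913) and 0.12 (adjusted p = 0.0333). Tmed10 had 332, 340 and 360 CPM in WTHK2, 320, 325 and 303 CPM in LAC, and 326, 329 and 335 CPM in EV, so WTHK2 and LAC did not overlap. The call of Tmed3 was lost without WTHK2 replicate 3 (0.0942) or LAC replicate 1 (0.0636). That of Tmed1 was lost without both first libraries (0.0560), and that of Tmed10 without EV replicate 1 (0.0531), EV replicate 2 (0.0514), WTHK2 replicate 2 (0.0603), WTHK2 replicate 3 (0.196) or LAC replicate 3 (0.174). The Tmed10 call was also lost without the variance trend (0.1175) and with the 6 libraries of the comparison alone (0.0808). Kdelr2 was higher by 0.17 (adjusted p = 0.0143), lost without WTHK2 replicate 3 (0.0796), LAC replicate 3 (0.0893) or the variance trend (0.0536). Ergic3 was lower at -0.18 (adjusted p = 0.0180), lost without WTHK2 replicate 2 (0.102), WTHK2 replicate 3 (0.0633), LAC replicate 1 (0.0714), LAC replicate 3 (0.0590) or the variance trend (0.05545).

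**Figure D4:**
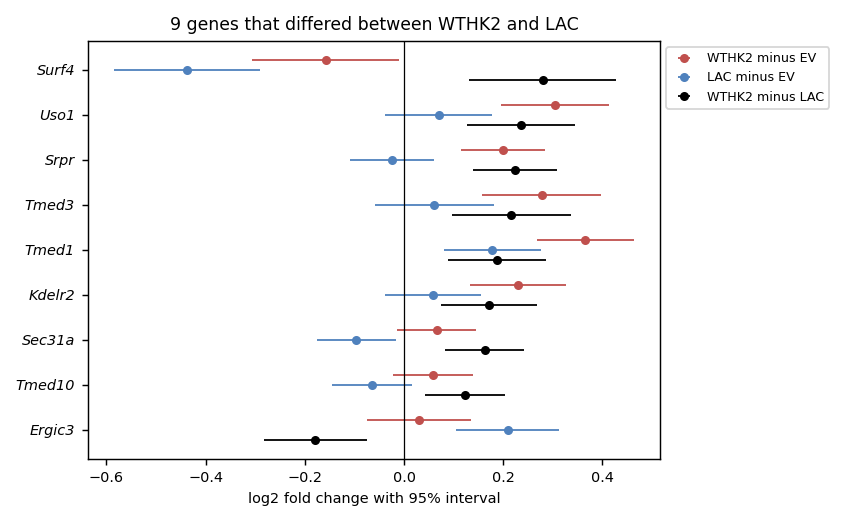
Log2 fold changes with 95% intervals of the 9 members called between WTHK2 and LAC, with WTHK2 against EV in red, LAC against EV in blue and WTHK2 against LAC in black. For Surf4 the interval of LAC against EV lies below 0, and for Uso1, Srpr, Tmed3 and Kdelr2 that of WTHK2 against EV lies above 0 while that of LAC spans 0.

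Members were put in classes of protein size by hand from general knowledge of the human proteins, after their values were seen, so the classes are a description and carry no test. Of 30 members whose protein has at most about 250 residues, 13 were higher and 0 lower in WTHK2, and 9 were higher and 0 lower in LAC, with medians of 0.13 and 0.078. Of 22 members with at least about 800 residues, 1 (Uso1) was higher and 11 lower in WTHK2, and 0 were higher and 15 lower in LAC, with medians of -0.14 and -0.17. The 36 others were higher in 8 and lower in 4 cases in WTHK2, and higher in 8 and lower in 7 cases in LAC. The count of 11 was 7 without EV replicate 1, without EV replicate 2 or after rescaling the libraries to 1 shared median. In single libraries the median of the short class was 0.10 to 0.13 in WTHK2, 0.069 to 0.10 in LAC and -0.0085 to 0.020 in EV, relative to the EV mean. That of the long class was -0.15 to -0.11 in WTHK2, -0.18 to -0.14 in LAC and -0.026 to 0.043 in EV.

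Lists of genes outside the secretory pathway gave the following values. Beside them, 21.0% of all genes were higher and 25.4% lower in WTHK2, and 22.4% and 27.1% in LAC. Of 56 listed genes whose human protein has over 2500 residues, also listed by hand, 47 were lower and 0 higher in WTHK2 (median -0.29), and 50 were lower and 0 higher in LAC (median -0.28). Of 33 cytosolic ribosomal protein genes, which code for short proteins, 31 were higher and 0 lower in WTHK2 (median 0.19), and 32 and 0 in LAC (median 0.27). The median of the 4 listed mitochondrially encoded transcripts, relative to the EV mean, was 0.73, 0.45 and 0.40 in the WTHK2 libraries, 0.80, 0.52 and 0.45 in the LAC libraries and 0.031, -0.040 and 0.013 in the EV libraries. The first library of each group was the highest. Without the first WTHK2 and LAC libraries 37 members were called in WTHK2, 33 in LAC and 12 between them, in place of 37, 39 and 9. The part of these trends in the rises of small subunits such as Ssr4, Spcs1 and Trappc3 and in the falls of large ones such as Sec16a, Copg2 and Golga4 was not tested. Uso1, of the long class, was higher in WTHK2. Surf4, lower in LAC, and Sec61a1, lower in both comparisons with EV, belong to neither class. The classes were written after the values were seen, so these genes carry no test of that part.

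**Figure D5:**
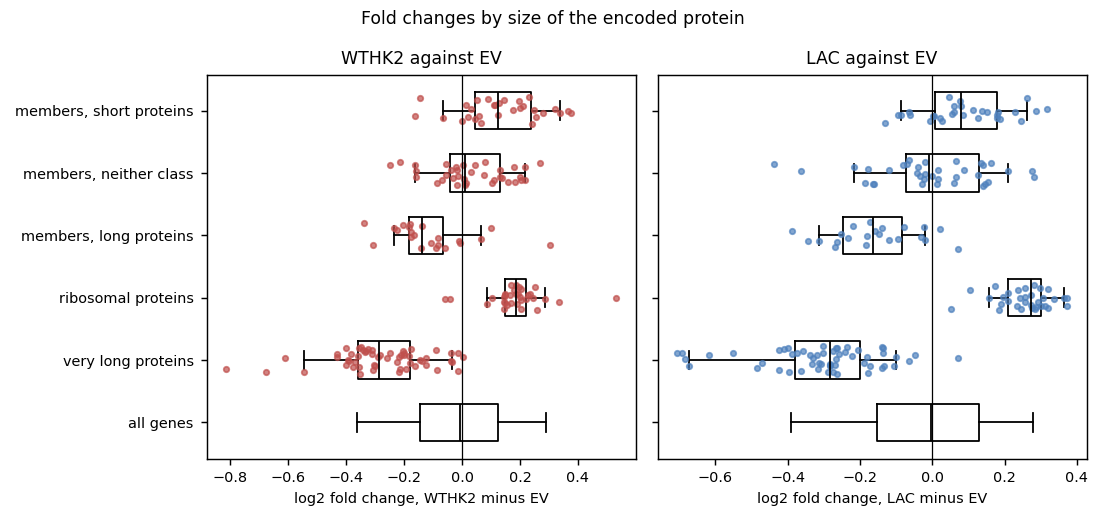
Log2 fold changes of short, other and long members, of ribosomal protein genes, of genes for very long proteins and of all genes, for WTHK2 against EV at the left and LAC against EV at the right. Points are genes, boxes show quartiles and the median, whiskers the 5th to 95th percentile, and the median of the long members lies below 0 and that of the short members above 0 in both panels.

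Other genes of the same transport steps were taken from a list of 63, of which 45 were in the table. In WTHK2, 8 were higher (17.8%, against 21.0% of all genes) and 7 lower (15.6%, against 25.4%). In LAC, 11 were higher (24.4%, against 22.4%) and 12 lower (26.7%, against 27.1%), so these shares were near or under those of all genes. The genes named next are up to 4 called ones each way in each comparison, those with the smallest adjusted p. Arf5, a small GTPase of the COPI system, rose by 0.34 (adjusted p = 2.43e-06) in WTHK2 and by 0.35 (adjusted p = 2.46e-06) in LAC. ASNA1, the targeting factor for tail-anchored proteins, rose by 0.24 (adjusted p = 1.69e-04) and 0.21 (adjusted p = 5.89e-04). Arcn1, the delta subunit of coatomer, fell, with a log2 difference of -0.31 (adjusted p = 4.97e-04) and -0.47 (adjusted p = 6.89e-06). In WTHK2 the rises of Emc7, of the membrane insertase EMC, and Tfg, of ER exit sites, were 0.27 and 0.21, and the falls of Emc1, Gbf1 and Rab1b were -0.36, -0.20 and -0.26. All of these were called in LAC too, in the same order at 0.15, 0.13, -0.19, -0.10 and -0.21 (adjusted p between 0.00134 and 0.0305).

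In LAC the SNARE genes Gosr2 and GOSR1, which act in fusion at the Golgi, fell, with a log2 difference of -0.36 (adjusted p = 4.25e-05) and -0.48 (adjusted p = 7.37e-04). Both were called lower in WTHK2 against EV too, at -0.18 (adjusted p = 0.0138) and -0.36 (adjusted p = 0.00687). NSF, the ATPase that recycles SNAREs, had 741, 786 and 799 CPM in WTHK2, 638, 673 and 660 CPM in LAC, and 817, 829 and 799.9 CPM in EV. LAC lay below all other libraries, with a difference from EV of -0.31 (adjusted p = 1.64e-06), against -0.073 (adjusted p = 0.0913) for WTHK2. Cnih4, a cargo receptor, rose by 0.26 (adjusted p = 1.86e-04) and Mia2, of ER exit sites, by 0.23 (adjusted p = 0.00139) in LAC. In WTHK2 against EV Cnih4 was also higher, by 0.20 (adjusted p = 0.00184), and Mia2 was at 0.0088 (adjusted p = 0.908). WTHK2 and LAC differed for NSF by 0.24 (adjusted p = 6.89e-05), for Gosr2 by 0.18 (adjusted p = 0.0344) and for Mia2 by -0.22 (adjusted p = 0.00671).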

How the data were processed

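RNA-seq was done on 9 libraries, 3 per group. Per the submitters' processing notes, reads were handled with edgeR 3.8, featureCounts 2.0.1, STAR 2.7.0a, cutadapt 1.18 and FastQC 0.11.8. The genome build was not given in the sources used here, nor were the annotation and any filter on low genes. Normalized CPM per gene, made by the authors, were deposited for 6753 genes. Effective library sizes, read from the steps of the low values (whole within 0.01 of a read), were 18050959 to 26238659 reads.

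Members were taken by symbol; they and all lists were chosen with earlier results of these data known. All 88 passed a filter of a mean of at least 1 CPM, which removed 0 genes. limma 3.58.1 (R 4.3.3), with a variance trend, was fitted on log2(CPM + 1) of all genes and all 9 libraries. Fold changes on this scale understate the change of low genes. P-values are two-sided and adjusted by Benjamini-Hochberg over all genes; a call is an adjusted p under 0.05. Intervals are 95%. The script was tested on simulated data. Values per library are given, by rule, for the called members with the largest change in each role group, for paralogs and for members called between WTHK2 and LAC. Apart from the paralogs, the rule took only members without overlap between the compared groups. For these members the lack of overlap was fixed by the choice and is no support. The share of all genes without overlap was not worked out. Other genes were added after their values were seen. Size classes were written by hand after the values were seen. Alternatives were other pseudocounts, filters, scalings, fits and thresholds, voom on the recovered reads, and each library left out. An edgeR fit, promoter motifs, annotated protein lengths and protein identities were planned and not run.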

Additional observations from a re-analysis of the deposited data

How the results depend on the processing

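Across 112 results and their alternatives, 2197 of 2352 comparisons kept direction and side of the threshold, 129 lost a call (96 of them with a library left out), 11 gained one and 15 changed sign, none of these for a called result. The 112 results include paralogs that were not called. The lowest gene mean was 20.4 CPM, so the fits without a filter and with a mean of at least 5 CPM used the genes of the main fit. All 112 results were bound to stay the same in each of these fits. The count of 2197 includes them and overstates how well calls held. Of the calls, 27 of 37 in WTHK2 against EV, 25 of 39 in LAC against EV and 3 of 9 in WTHK2 against LAC were kept under every alternative fit. The lists of lost calls given with each gene above do not cover every alternative, such as leaving out both first libraries. The cause of the losses was not tested.

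With a fold of at least 1.2 also required, 9 members were called in WTHK2 against EV (7 higher, 2 lower), 11 in LAC against EV (4 higher, 7 lower) and 1 in WTHK2 against LAC (1 higher, 0 lower). At an adjusted p under 0.01, 14 members were lower in LAC against EV, and 5 were higher and 0 lower, 5 in all, between WTHK2 and LAC. Without the variance trend 0 were lower in WTHK2 than in LAC. With 1 library left out, called members numbered 30 to 40 in WTHK2 against EV (20 to 22 higher, 9 to 18 lower), 28 to 41 in LAC against EV (12 to 20 higher, 16 to 23 lower) and 4 to 14 in WTHK2 against LAC (4 to 13 higher, 0 to 1 lower). Without the first WTHK2 and LAC libraries they were 37, 33 and 12. The share of all genes called was worked out for the main fit alone. Counts of called members under other settings, here and above, therefore have no such share beside them. A change in these counts is not read as a result about the members.

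Signs that changed belonged to members near 0. After rescaling the libraries to 1 shared median, Sec23b was at 0.0043 in WTHK2 against EV, Copg1 at 0.0091 in LAC against EV and Copg2 at -0.0012 in WTHK2 against LAC. With 1 library left out, values in WTHK2 against EV ran from -0.015 to 0.061 for Sar1a and from -0.063 to 0.027 for Sec23b. In LAC against EV they ran from -0.0090 to 0.041 for Sec23b and from -0.00536 to 0.16 for Sec61a2, whose low end also came without the first WTHK2 and LAC libraries. In WTHK2 against LAC they ran from -0.045 to 0.058 for Copg2, from -0.079 to 0.010 for Sec23b, from -0.021 to 0.044 for Sec61a1 and from -0.025 to 0.14 for Sec61a2.

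The labels number replicates 1 to 3 in each group. Deviations of same-numbered libraries correlated at 0.437, 0.251 and 0.073 between WTHK2 and LAC, at 0.14 and 0.21 for replicate 2 of WTHK2 and of LAC with EV, and at -0.0057 to 0.076 for the 4 other pairs. Not every pair was over 0.1, so no pairing was assumed, and whether same-numbered libraries share a batch was not tested. With the replicate block, 41, 43 and 11 members were called in the 3 comparisons, again without a share of all genes beside them.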
